A study of Mus musculus with 18 samples.

Results

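The genes described here are 9 members of the Nodal and bone morphogenetic protein (BMP) signalling pathways, followed from mouse embryonic stem (ES) cells to germ cells made in culture and germ cells taken from the animal. They are Nodal, its co-receptor Tdgf1, its inhibitors Lefty1 and Lefty2, the BMP ligands Bmp4 and Bmp8b, and Id1, Id2 and Id3, genes switched on by BMP signals. Members were chosen by name: every probe whose gene name, or an older name of that gene, was on the list. The rule found 11 probes for the 9 genes, with 2 probes each for Id1 and Id2, and all 9 were among the 18876 genes tested.

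Nodal is a secreted factor of the TGF-beta family that needs the co-receptor encoded by Tdgf1 (Cripto) to signal through Smad2, Smad3 and the DNA-binding partner FoxH1. The Lefty proteins are secreted antagonists of Nodal and are themselves among its target genes, as is Nodal. BMP ligands act through Smad1, Smad5 and Smad9, and the Id proteins that they induce hold back basic helix-loop-helix transcription factors. Bmp4 and Bmp8b are known as the signals that set aside primordial germ cells (PGCs) in the embryo, and Nodal, Cripto and Lefty are known to be active for a short time in germ cells of the fetal testis.

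The study measured RNA of 18 samples, 2 in each of 9 groups, on 1-colour Agilent arrays. The labels give every sample the same mixed background of C57BL/6 and 129SV and call every sample male. Undifferentiated Stella-GFP ES cells, from a line with a BAC reporter for Stella, and undifferentiated Dazl-GFP ES cells were grown with Lif on feeder fibroblasts and sorted into GFP-negative and GFP-positive cells, which made 4 groups. In vitro PGCs were GFP-positive cells sorted from Stella-GFP cultures at day 7 of differentiation and from Dazl-GFP cultures at day 12 and day 16, after feeder cells had been depleted. Each line stands for 1 ES cell line, and the gate follows a reporter, not the germ cell fate itself. In vivo, Dazl-GFP-positive germ cells were sorted from transgenic embryonic gonads at E13.5 and from juvenile testes at postnatal day 7 to 11. The labels do not say whether the 2 samples of a group were separate cultures or animals, so a p-value here reflects only how far these samples spread, which may be technical.

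A level is the log2 of the background-subtracted signal relative to the 75th percentile of its array, so 0 marks that percentile. That percentile lay between 103 and 474 signal units, 50.64% to 68.91% of spots were well above background, and no member was saturated. Every member was well above background on all 18 arrays, with 1 exception, Bmp8b, which was not on either E13.5 array. The fit across all genes used limma over the 9 groups, and a gene counted as called where its adjusted p (Benjamini-Hochberg, over 18876 genes) was under 0.05. Germ cell markers were detected on both E13.5 and both juvenile arrays (8 of 8), and ES cell markers on all ES arrays (7 of 7). Detection alone did not set the groups apart. At least 7 of the 8 germ cell markers were detected on every ES array. All 7 ES cell markers were detected on every array but the juvenile ones, which had 5. In RNA of sorted populations, fewer cells of a type and less RNA per cell cannot be told apart.

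The 2 libraries labelled E13.5 did not match each other for these genes. Nodal was at -1.39 in replicate 1 and 3.37 in replicate 2. Lefty1 was at -2.54 and 5.50, a 263.2-fold difference, and Lefty2 at -4.39 and 3.33, 210.8-fold. Among all 18876 genes, ordered by the size of this difference, Lefty1 stood at place 8 and Lefty2 at place 10. Tdgf1 was at -3.92 and 0.14, and Bmp4 at -2.36 and 1.09. The Nodal genes and Bmp4 were thus all lower in replicate 1.

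The Id genes ran the other way between the same libraries. Id1 was at 3.22 in replicate 1 and -0.24 in replicate 2, and its second probe at 3.06 and -0.48. Id2 was at 2.51 and -0.11, with 0.95 and -1.27 at its second probe, and Id3 at 4.72 and 2.69. Bmp8b was at -5.36 and -6.50, not well above background on either array. In all, 8 of the 9 genes differed by more than a log2 of 2 between the E13.5 libraries, against 8.19% of all genes. In the other 8 groups none of the 9 did, while 0.244% to 2.97% of all genes did.

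**Figure D1:**
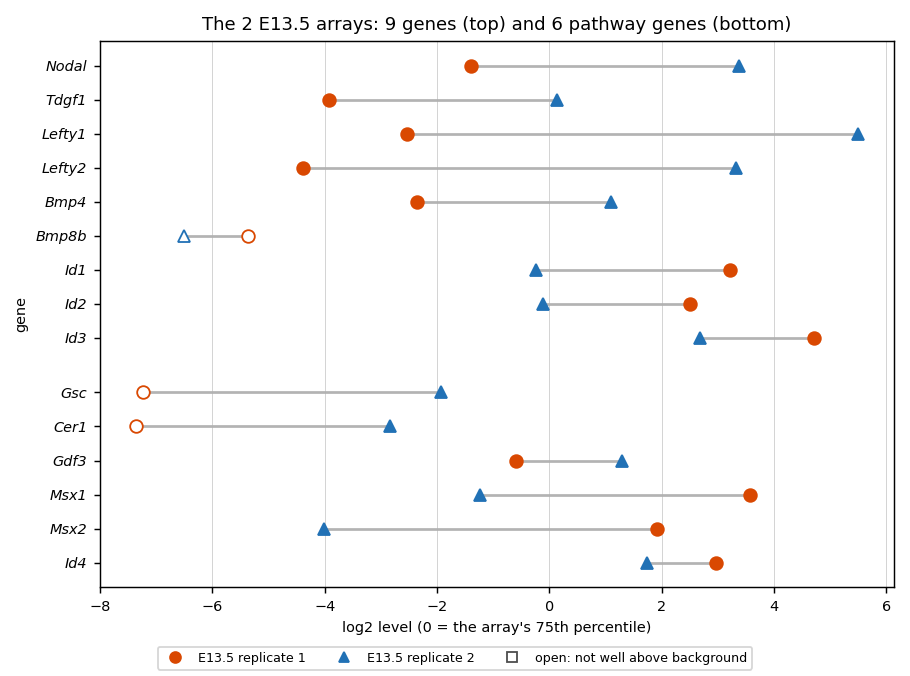
Levels on the E13.5 arrays (x axis, log2 relative to the 75th percentile of the array) of the 9 genes and of 6 other genes of the pathways, with circles for replicate 1, triangles for replicate 2 and open symbols where the probe was not well above background. Nodal, Tdgf1, Lefty1, Lefty2, Bmp4, Gsc, Cer1 and Gdf3 lie further right in replicate 2, and the Id genes, Msx1 and Msx2 in replicate 1.

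Other genes moved with this split. Of the genes on the Y chromosome, Ddx3y and Eif2s3y were at -7.45 and -7.29 in E13.5 replicate 1, not well above background, although the label says male. In replicate 2 they were at -1.36 and 3.17, and both were well above background on each of the other 16 arrays. Xist, the RNA of the inactive X chromosome, was not well above background on any of the 18 arrays, at -6.16 and -7.27 at E13.5. Stra8, which is needed for entry into meiosis, was at 8.87 in replicate 1 and 1.55 in replicate 2. Nanos2, an RNA-binding protein of male fetal germ cells, was at -5.63, not well above background, and at 0.39. Stra8 and Nanos2 were chosen after their values were seen. Dazl, the reporter gene, was at 5.42 and 5.27, and the 8 germ cell markers averaged 3.59 and 3.45. The 10 markers of Sertoli cells, the somatic cells of the testis cord, averaged -3.30 in replicate 1, where Sox9, Amh and Fshr were not well above background, and -1.13 in replicate 2, where Fshr was not. The part of any of these differences in the levels of the 9 genes was not tested.

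Because limma shares 1 estimate of the spread among the groups, this pair enters the error of every comparison. The residual SD of Lefty1 was 1.90 over all arrays and 0.15 once the array labelled E13.5 replicate 1 was left out. For Nodal it was 1.12 and 0.06, and for Bmp8b, which differed least, 0.44 and 0.38. Each comparison below is therefore given with all arrays and again with that one left out. Without it the E13.5 group is a single array, assumed to vary like the other groups.

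Promoters of 6 of the 9 genes (Nodal, Tdgf1, Bmp4, Bmp8b, Id2 and Id3) were in the RefSeq table used, build GRCm38.p6. The 250 bases before the start are shown for Nodal and Tdgf1, which were lower in E13.5 replicate 1, and for Id2 and Id3, which were higher there. Each is written 5′ to 3′ on the strand of the gene. Nodal lies at chr10:61417722-61417971 on the plus strand, Tdgf1 at chr9:110946159-110946408 on the minus strand, Id2 at chr12:25096093-25096342 on the minus strand and Id3 at chr4:136143572-136143821 on the plus strand. Capitals mark the Smad motifs GGCGCC and CAGAC and the FoxH1 core TGTNNATT, each searched on both strands.
Nodal: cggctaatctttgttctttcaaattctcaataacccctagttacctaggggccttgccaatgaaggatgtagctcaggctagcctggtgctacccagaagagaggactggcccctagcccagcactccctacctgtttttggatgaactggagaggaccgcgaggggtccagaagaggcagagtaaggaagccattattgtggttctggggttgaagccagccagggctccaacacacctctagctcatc
Tdgf1: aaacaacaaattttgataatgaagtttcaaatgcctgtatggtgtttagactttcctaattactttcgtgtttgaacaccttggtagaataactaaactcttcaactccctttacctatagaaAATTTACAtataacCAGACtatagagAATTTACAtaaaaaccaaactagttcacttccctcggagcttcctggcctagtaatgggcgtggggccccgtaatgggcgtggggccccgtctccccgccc
Id2: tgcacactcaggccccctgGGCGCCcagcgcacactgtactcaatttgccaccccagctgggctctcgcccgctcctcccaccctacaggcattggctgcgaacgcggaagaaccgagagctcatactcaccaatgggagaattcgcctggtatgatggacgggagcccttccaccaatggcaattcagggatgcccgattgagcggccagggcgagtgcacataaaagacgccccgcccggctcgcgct
Id3: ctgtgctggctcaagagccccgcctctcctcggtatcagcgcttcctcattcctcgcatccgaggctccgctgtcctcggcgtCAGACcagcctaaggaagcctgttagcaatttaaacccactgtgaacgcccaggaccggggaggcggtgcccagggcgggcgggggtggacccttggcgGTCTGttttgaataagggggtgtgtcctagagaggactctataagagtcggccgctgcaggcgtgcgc

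Positions give the first base of a match, counted back from the start that follows the stretch. The Tdgf1 stretch held 2 matches to TGTNNATT, at -127 and -101, with a CAGAC match between them at -113. That FoxH1 core was found in 10.9% of the 32851 promoters of the table. The Id3 stretch held 2 matches to CAGAC, at -167 and -68, and the Id2 stretch 1 match to GGCGCC at -231. CAGAC occurred in 42.2% of all promoters and GGCGCC in 9.59%. The Nodal and Bmp4 stretches held none of these letters and the Bmp8b stretch 1 CAGAC match. That Bmp8b stretch, chr4:123104911-123105160 on the plus strand, lies inside the annotated gene, which begins at 123104308. No matches overlapped. A match is a description of the letters, not of binding.

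**Figure D2:**
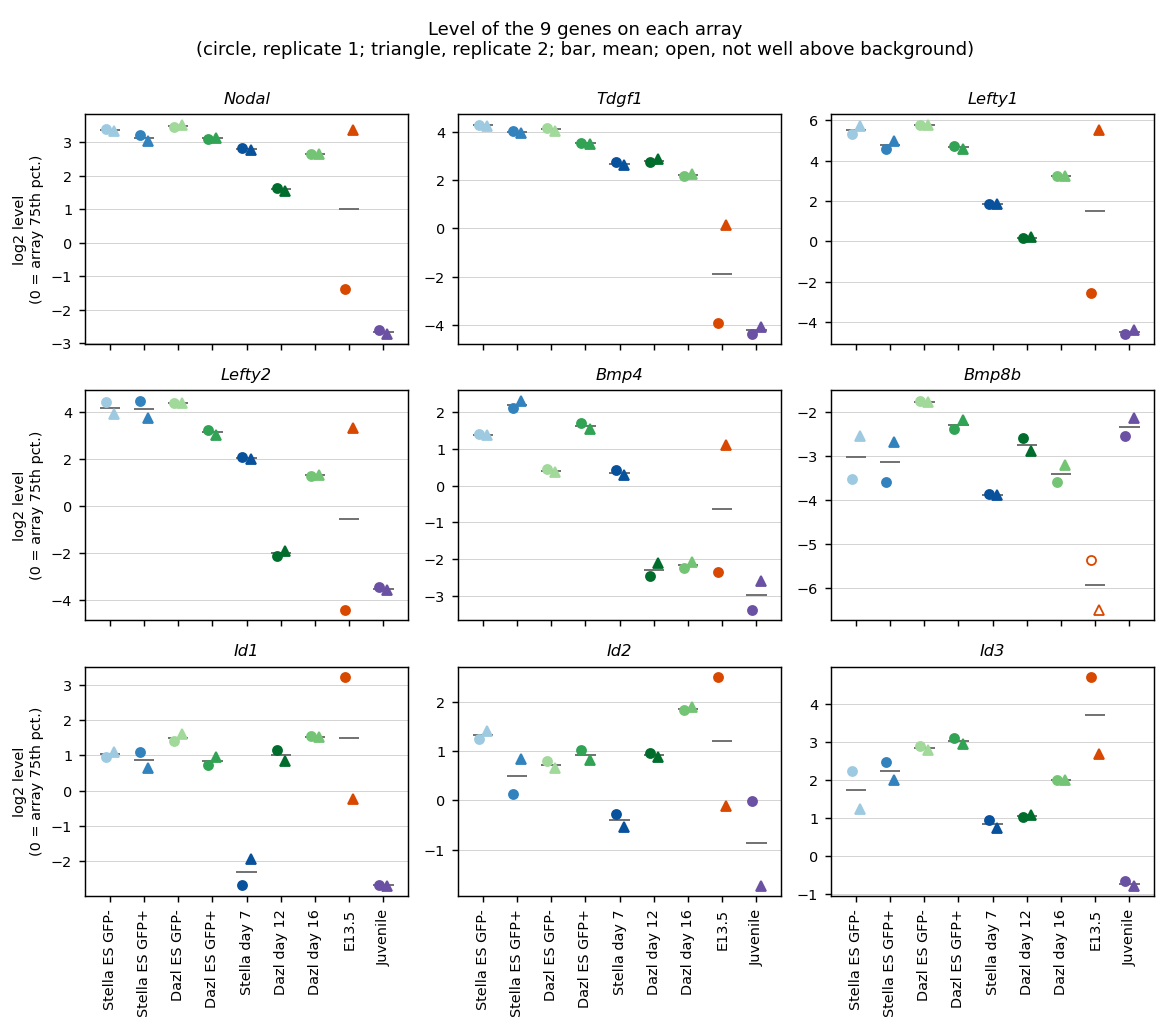
Level of each of the 9 genes on each of the 18 arrays (y axis, log2 relative to the 75th percentile of the array; x axis, the 9 groups), with circles for replicate 1, triangles for replicate 2 and bars for the mean of 2. Replicates lie close together in every group but E13.5 for the Nodal genes, and the juvenile group has the lowest mean for all genes but Bmp8b.

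Among the Nodal genes, ES cells held the highest group means. Lefty1 was at 5.77 and 5.75 in Dazl GFP-negative ES cells, and at 5.33 and 5.73 in Stella GFP-negative ES cells. In GFP-positive cells it was at 4.56 and 4.95 for Stella and 4.70 and 4.60 for Dazl, which overlapped. It then stood at 3.26 and 3.24 at Dazl day 16, 1.86 and 1.85 at Stella day 7 and 0.17 and 0.19 at Dazl day 12. Juvenile germ cells were lowest, at -4.57 and -4.41. Without the E13.5 group the span from the highest to the lowest group mean was 10.25 on the log2 scale for Lefty1, the widest of the 9 genes.

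Nodal itself spanned less. It ranged from 3.03 to 3.51 over the 8 ES arrays, was at 2.83 and 2.77 at Stella day 7 and 2.65 and 2.64 at Dazl day 16, and dipped to 1.63 and 1.54 at Dazl day 12. Juvenile cells were at -2.61 and -2.71, below the lower E13.5 array. Stella and Dazl GFP-positive ES cells overlapped, and the other neighbouring groups in culture did not. Tdgf1, the co-receptor, kept a different order. It was at 3.48 to 4.28 in ES cells, 2.75 and 2.85 at day 12, 2.74 and 2.62 at day 7, and only 2.17 and 2.26 at day 16. Day 16, the later time, thus had less Tdgf1 but more Nodal and Lefty than day 12.

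Lefty2 was at 4.42 and 4.39 in Dazl GFP-negative ES cells and at 3.77 to 4.49 over the 4 Stella ES arrays, groups that overlapped. Dazl GFP-positive cells were at 3.26 and 3.05, day 7 at 2.10 and 2.03, day 16 at 1.31 and 1.35 and day 12 at -2.10 and -1.90. Juvenile cells were at -3.44 and -3.55. Lefty1 and Lefty2 are close paralogues that lie near each other in the genome, and whether their probes keep the transcripts apart was not tested.

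Of the BMP ligands, Bmp4 was highest in the GFP-positive ES cells. It was at 2.10 and 2.30 in Stella and 1.71 and 1.55 in Dazl GFP-positive cells, against 1.39 and 1.38 and 0.44 and 0.37 in the GFP-negative cells. At day 7 it was at 0.41 and 0.30, at day 12 at -2.47 and -2.11 and at day 16 at -2.24 and -2.07, the last pair overlapping. Bmp8b was dimmer. It stood at -1.74 and -1.77 in Dazl GFP-negative ES cells, between -3.60 and -2.53 on the 4 Stella ES arrays, and at -3.87 and -3.89 at day 7. In juvenile cells it was at -2.53 and -2.14, which overlapped with Dazl GFP-positive ES cells (-2.38 and -2.18).

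Of the Id genes, Id1 ranged from 0.64 to 1.60 over the 8 ES arrays and from 0.85 to 1.54 at day 12 and day 16, but was at -2.67 and -1.95 at day 7. Juvenile cells were at -2.66 and -2.69, a range that overlapped with day 7. Id2 was highest at day 16, with 1.84 and 1.89, and low at day 7 (-0.28 and -0.53) and in juvenile cells, whose arrays differed (-0.01 and -1.73). Id3 was at 3.1 and 2.94 in Dazl GFP-positive ES cells, 2.00 and 2.01 at day 16, 1.04 and 1.08 at day 12, 0.94 and 0.74 at day 7 and -0.67 and -0.78 in juvenile cells.

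The sort of Stella-GFP ES cells compared GFP-positive with GFP-negative cells. With limma none of the 9 genes was called, and 0 had an unadjusted p under 0.05, while 0.44% of all genes were called. Lefty1 was 0.77 ± 0.17 lower (SE without the E13.5 library, adjusted p = 0.0639) and Bmp4 0.82 ± 0.23 higher (adjusted p = 0.16). Both pairs of arrays separated for each, and also for Nodal, Tdgf1 and Id2, and the share over all genes was not counted. Without that library 0 were called still and 2 had an unadjusted p under 0.05, at a background of 1.36%.

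In the Dazl-GFP line, Lefty1, Lefty2 and Tdgf1 were lower and Bmp4 higher in GFP-positive than in GFP-negative ES cells. These genes were not called with all arrays. They were called without the E13.5 library, and in a fit to only the arrays compared, which called 14% of all genes. With all arrays limma called none of the 9 genes, and 0 at an unadjusted p under 0.05, while 2.87% of all genes were called. Without the E13.5 library it called 4, at a background of 7.29%. Lefty2 was lower in GFP-positive cells by a log2 fold change of -1.25 ± 0.24 (adjusted p = 0.0123), Lefty1 by -1.11 ± 0.17 (adjusted p = 0.00466) and Tdgf1 by -0.58 ± 0.13 (adjusted p = 0.0286). Bmp4 was higher by 1.22 ± 0.23 (adjusted p = 0.0129). In all 9 genes, called or not, both arrays of 1 gate lay beyond both of the other. This does not set the called genes apart, and the share over all genes was not counted. Within the 2 slides that held both gates, Lefty1 differed by -1.07 and -1.16 and Bmp4 by 1.26 and 1.18.

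With all arrays these genes had adjusted p-values of 0.586 (Bmp4) to 0.927 (Lefty1) in the Dazl sort. Fibroblast markers moved with the gate: the 12 averaged -1.46 on both GFP-negative arrays and 0.37 and 0.43 on the GFP-positive ones, and 6 were called higher (7 without the E13.5 library). Their part in the result was not tested. The sorts of the 2 lines differed in none of the 9 genes, and 0 had an unadjusted p under 0.05, at a background of 0.0318%. Without the library 0 were called and 1 had an unadjusted p under 0.05, at a background of 0.403%. The widest difference was that of Lefty2, 1.19 ± 0.33 (adjusted p = 0.239 without the library).

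Stella-GFP cells at day 7 were compared with Stella GFP-positive ES cells. Id1 fell 9.059-fold, and it was the only one of the 9 genes called with all arrays, where 20.6% of all genes were called. Its log2 fold change was -3.18 ± 0.77 (adjusted p = 0.0138), and -2.94 at its second probe. Leaving out Stella GFP-positive ES replicate 1 or day 7 replicate 1 ended the call (adjusted p = 0.0701 and 0.104), as did normexp background correction (-1.72, adjusted p = 0.0959). Without the E13.5 library 6 of the 9 were called, all lower, at a background of 30.2%. Besides Id1 these were Lefty1 (-2.90 ± 0.17), Lefty2 (-2.07 ± 0.24), Bmp4 (-1.85 ± 0.23), Id3 (-1.41 ± 0.28) and Tdgf1 (-1.29 ± 0.13).

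Nodal, at -0.32 ± 0.12, was not called at day 7 with or without that library (adjusted p = 0.867 and 0.0764). The median over the 9 genes was -1.41, against -0.15 over all genes. Fibroblast markers were lower as well, with 7 of 12 called and a mean of -3.28 and -3.29 at day 7 against -0.46 and -2.19 in the ES cells. Fbn1, Prrx1, Twist1, Lum and Dcn were not well above background at day 7, and the part of these cells in the result was not tested. Day 7 arrays filled slides of their own, so slide and group cannot be told apart.

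Dazl-GFP cells at day 12 were compared with Dazl GFP-positive ES cells. The Lefty genes and Bmp4 were far lower, while Id1 and Id2 overlapped with the ES cells. With all arrays 3 genes were called, all lower, at a background of 27.3%. Lefty2 had a log2 fold change of -5.15 ± 1.63 (35.58-fold, adjusted p = 0.0367), Bmp4 -3.92 ± 0.76 (15.12-fold, adjusted p = 0.00322) and Id3 -1.96 ± 0.51 (adjusted p = 0.0147, but 0.0699 with normexp). Lefty1, 22.14-fold lower, had an adjusted p of 0.072. Of these calls only that of Bmp4 lasted when any 1 of the 4 libraries compared was left out. The same held with slide as a block, which called 15.3% of all genes. In that fit Lefty2 (-4.91) and Id3 (-1.69) had adjusted p-values of 0.14 and 0.086.

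Without the E13.5 library 6 of the 9 were called lower at day 12, at a background of 36.7%, now with Lefty1 (-4.47 ± 0.17), Nodal (-1.53 ± 0.12) and Tdgf1 (-0.71 ± 0.13). Within the slide that held both groups, Lefty1 differed by -4.41, Lefty2 by -4.95, Bmp4 by -3.66 and Nodal by -1.59. Id1 (0.16 ± 0.24) and Id2 (0.00 ± 0.44) were not called, and their arrays overlapped. Fibroblast markers were lower too, 9 of 12 being called, with means of -2.94 and -2.86 and with Prrx1, Lum and Dcn not well above background. Their part in the result was not tested.

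Nodal, Lefty1 and Lefty2 were higher at Dazl day 16 than at day 12, while Tdgf1, the gene of the Nodal co-receptor, was not. With all arrays limma called none of the 9 genes, and 0 at an unadjusted p under 0.05, at a background of 1%. Without the E13.5 library it called 3, all higher, at a background of 1.98%. Lefty2 rose by 3.33 ± 0.24 (10.05-fold, adjusted p = 0.000148), Lefty1 by 3.07 ± 0.17 (8.392-fold, adjusted p = 4.67e-05) and Nodal by 1.06 ± 0.12 (2.089-fold, adjusted p = 0.00169). With all arrays their adjusted p-values were 0.715, 0.813 and 1. A fit to these 4 arrays alone called 6 genes, adding Tdgf1, Id2 and Id3, but it called 19.7% of all genes.

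Within each of the 2 slides that held both days, the differences were 3.41 and 3.25 for Lefty2, 3.09 and 3.05 for Lefty1 and 1.02 and 1.10 for Nodal. Tdgf1 was at -0.58 ± 0.13 (adjusted p = 0.06) and Bmp4 at 0.13 ± 0.23. Id2 (0.94 ± 0.44) and Id3 (0.95 ± 0.28) were higher on both day 16 arrays and not called. The 12 fibroblast markers averaged -2.02 and -2.08 at day 16, and 2 were called higher without the library. The part of such cells in these differences was not tested.

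**Figure D3:**
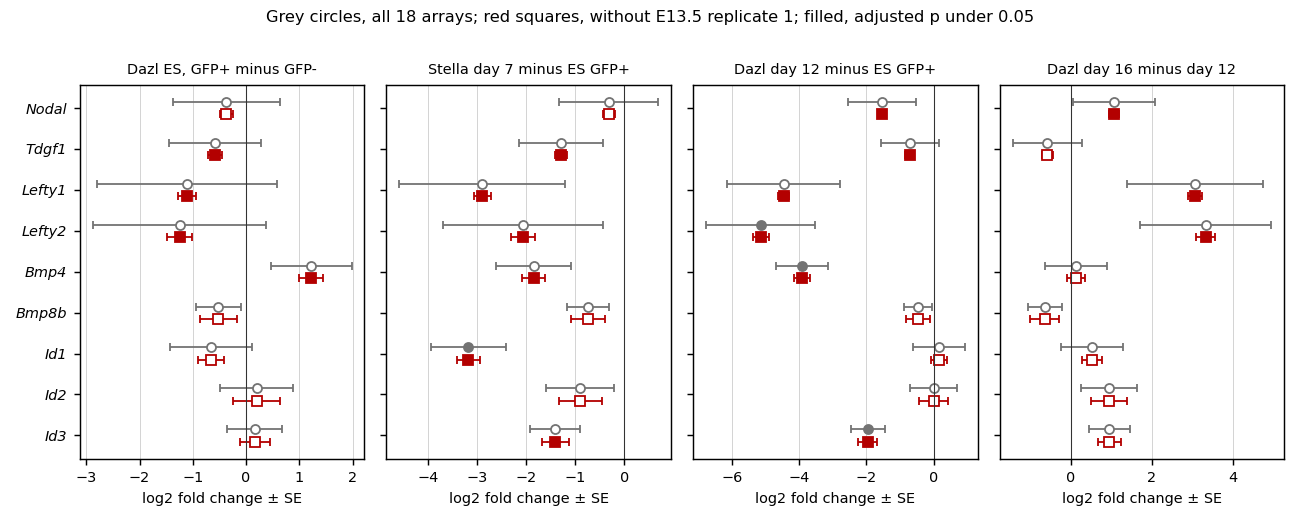
Log2 fold change (x axis, with its SE) of the 9 genes in 4 comparisons of cultured cells, with all 18 arrays (grey circles) and with E13.5 replicate 1 left out (red squares); filled symbols had an adjusted p under 0.05. The estimates do not move, while the SE of Lefty1 goes from 1.69 to 0.17, and the called genes go from 0 to 4, 1 to 6, 3 to 6 and 0 to 3.

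Germ cells at E13.5 were set against Dazl GFP-positive ES cells. Fibroblast markers were lower at E13.5, with 10 of 12 called and means of -3.50 and -3.46 against 0.37 and 0.43 in the ES cells. The part of such cells in the result was not tested. With both E13.5 arrays Tdgf1 (-5.40 ± 0.86, adjusted p = 0.000406), Bmp4 (-2.26 ± 0.76, adjusted p = 0.0301) and Bmp8b were called lower, 3 of 9 at a background of 44.8%. Bmp8b was at least 8.419-fold lower (adjusted p = 3.83e-05), a bound set by the dimmest probes well above background on the E13.5 arrays. Leaving out either Dazl GFP-positive ES library ended the call of Bmp4 (adjusted p = 0.109 and 0.09). With E13.5 replicate 2 alone Tdgf1 was 10.39-fold lower, Id1 2.127-fold lower and Bmp8b at least 8.381-fold lower, while Lefty1 was 1.801-fold higher (0.85). Nodal (0.26) and Lefty2 (0.18) of that library were not called. With replicate 1 alone Lefty1 was at -7.19, Lefty2 at -7.54 and Nodal at -4.50. Id1, Id2 and Id3 of replicate 1 were higher than in the ES cells, at 2.37, 1.59 and 1.70.

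Set against Dazl day 12, the same germ cells had less Tdgf1 (-4.69 ± 0.86, adjusted p = 0.00126) and Bmp8b (at least 6.103-fold) and more Id3 (2.65 ± 0.51, adjusted p = 0.0016), 3 of 9 at a background of 42%. With E13.5 replicate 2 alone 8 of the 9 were called, at a background of 42.9%. Lefty2 was 40.2-fold, Lefty1 39.86-fold, Bmp4 10.4-fold, Nodal 3.451-fold and Id3 3.104-fold higher than at day 12. Tdgf1 was 6.343-fold, Id1 2.376-fold and Bmp8b at least 6.075-fold lower. Leaving out E13.5 replicate 2 instead put Nodal (-2.97), Lefty1 (-2.72) and Lefty2 (-2.39) lower than at day 12. A fit to only the arrays compared called 1 gene, Bmp8b, both here (12.7% of all genes) and against ES cells (18.4%). The direction of Nodal, Lefty1 and Lefty2 thus depended on which library stood for E13.5. No slide held both E13.5 and cultured cells, so slide and group cannot be told apart here.

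In juvenile germ cells, Nodal, Lefty1, Bmp4, Id1, Id2 and Id3 were lower and Bmp8b higher than at E13.5. The arrays of Id2 overlapped, as juvenile replicate 1 (-0.01) lay above E13.5 replicate 2 (-0.11). Against both E13.5 arrays 7 of the 9 genes were called, at a background of 34.8%, of which 6 were lower. Id3 had a log2 fold change of -4.43 ± 0.51 (21.6-fold, adjusted p = 6.38e-05), Id1 -4.16 ± 0.77 (17.9-fold), Lefty1 -5.96 ± 1.69 (adjusted p = 0.0175), Nodal -3.65 ± 1.01 (adjusted p = 0.0151), Bmp4 -2.35 ± 0.76 and Id2 -2.07 ± 0.69. Bmp8b was at least 8.082-fold higher (adjusted p = 7.11e-05), but by normexp it differed by 0.46 with an adjusted p of 0.266. Leaving out either juvenile library ended the calls of Nodal, Lefty1 and Bmp4, and leaving out replicate 2 ended a further call. All 4 arrays lay on 1 slide, and a limma fit to these 4 alone called 0 of the 9 genes, with 3 at an unadjusted p under 0.05, and 1.92% of all genes.

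Against E13.5 replicate 2 alone 8 of the 9 were called, at a background of 40.3%. Against that 1 array Lefty1 was 1012-fold lower (-9.98), Lefty2 113.4-fold, Nodal 65.46-fold and Tdgf1 20.46-fold, and Id2 was no longer called (-0.76). Leaving out E13.5 replicate 2 instead put Lefty1 at only -1.95, Nodal at -1.27 and Tdgf1 at -0.30. It turned Lefty2 to 0.89, higher in juvenile cells. The size of these differences thus depended on which library stood for E13.5. Sertoli markers were higher in juvenile cells (6 of 10 called, 2 without the E13.5 library), with means of 0.18 and -1.42 and all 10 well above background. Their part in the result was not tested.

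The other genes of both pathways were read from fixed lists. Of 24 further genes of Nodal and activin signalling 23 were tested (Acvr1c was not), and of 31 of BMP signalling 28 (Bmp5, Gdf6 and Bmpr1b were not). Between the E13.5 libraries 4 of the 23 Nodal genes differed by more than a log2 of 2, all higher in replicate 2, and 8 of the 28 BMP genes, 7 of them higher in replicate 1. Msx1 and Msx2, homeobox targets of BMP signals, were at 3.57 and 1.91 in replicate 1 and -1.24 and -4.02 in replicate 2. The Nodal targets Gsc and Cer1, the latter also an inhibitor, were not well above background in replicate 1 and at -1.93 and -2.84 in replicate 2. These 4 genes were chosen after their values were seen.

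**Figure D4:**
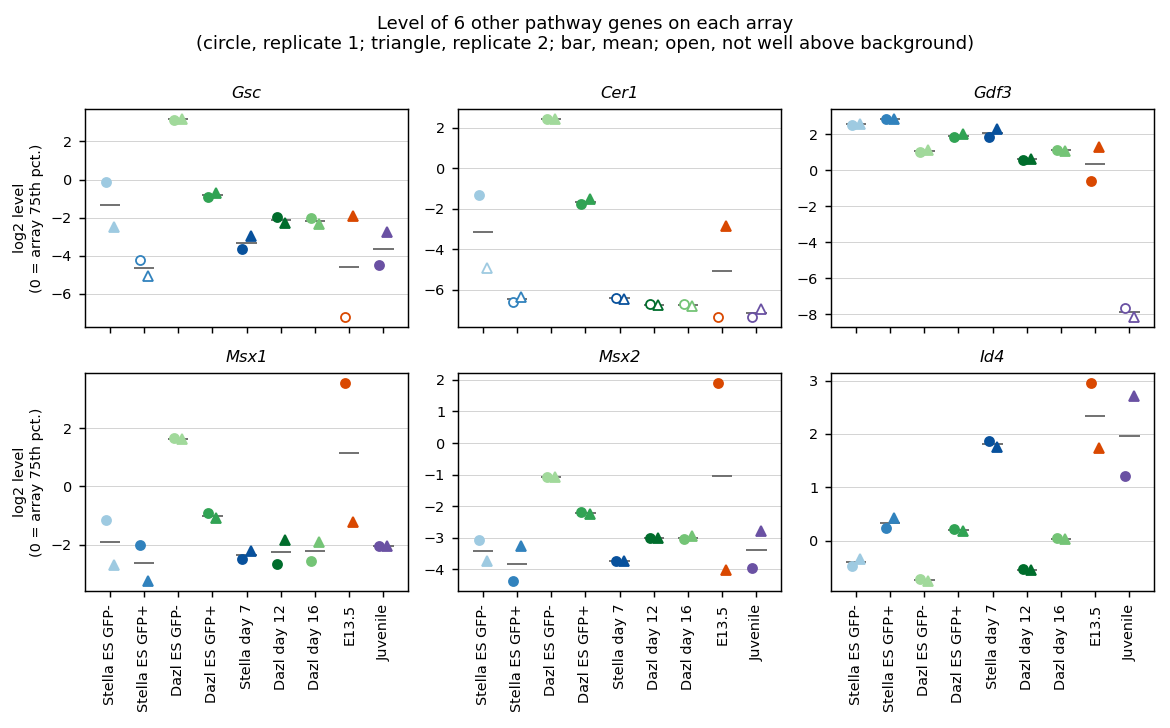
Levels of 6 further pathway genes on each array (y axis, log2 relative to the 75th percentile of the array; x axis, the 9 groups), with circles for replicate 1, triangles for replicate 2 and open symbols where the probe was not well above background. Msx1 and Msx2 reach their highest levels, 3.57 and 1.91, in E13.5 replicate 1.

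In the Dazl sort 2 BMP genes and none of the Nodal list were called, at a background of 2.87%. Of the Nodal list 8 had an unadjusted p under 0.05. Without the E13.5 library 7 and 6 were called, at a background of 7.29%. The 2 BMP genes called with all arrays were lower in GFP-positive cells, the signal transducer Smad1 by -1.52 ± 0.28 and the ligand Bmp7 by -1.73 ± 0.35. Each lost its call without any 1 of the 4 libraries compared (adjusted p from 0.0651 to 0.19). In the Stella sort none of either list was called, at a background of 0.44%. There 4 of the Nodal list and 0 of the BMP list had an unadjusted p under 0.05. Without the library 1 of the Nodal list was called, at a background of 1.36%.

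At day 7 the activin subunit gene Inhbb fell by 5.06 ± 0.69 on the log2 scale. Inhba was at least 20.61-fold lower and the BMP antagonist Grem1 at least 7.111-fold lower. The fibroblast markers given above were lower in the same comparison, and their part in this was not tested. Bmp7 (1.89 ± 0.35), the BMP receptor gene Acvr1 (2.83-fold, adjusted p = 0.00307) and Id4 (1.48 ± 0.43) were higher, so Id4 went up where Id1 went down. The call of Id4 did not last when any 1 of the 4 libraries compared was left out (adjusted p from 0.0856 to 0.149). In all 5 of 23 Nodal genes (4 lower) and 6 of 28 BMP genes (1 lower) were called at day 7, where 20.6% of all genes were. Without the E13.5 library these were 9 (5 lower) and 7 (1 lower), at 30.2% of all genes.

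At day 12, 6 of 23 Nodal genes were called, all lower, and 8 of 28 BMP genes, 5 of them higher, against 27.3% of all genes. Without the E13.5 library 9 of the Nodal list (3 higher) and 12 of the BMP list (8 higher) were called, against 36.7% of all genes. Grem1 was at least 78.63-fold lower and Fst, which binds activin, at least 23.02-fold lower, while Bmp7 was higher by 2.56 ± 0.35, the extracellular BMP modulator Twsg1 by 1.38 ± 0.29 and Smad1 by 1.16 ± 0.28. Inhba and Inhbb fell as well, and the fibroblast markers given above were lower in the same comparison. Their part in this was not tested. Between day 12 and day 16 none of either list was called, at a background of 1%, with 1 and 3 having an unadjusted p under 0.05. Without the library 1 of the Nodal list was called, at a background of 1.98%.

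At E13.5 Bmp7 was higher than in Dazl GFP-positive ES cells by 3.62 ± 0.35, the receptor gene Bmpr1a by 1.20 ± 0.20 and Smad5 by 1.60 ± 0.27. The convertase gene Furin was higher by 2.40 ± 0.46. All 4 remained called with E13.5 replicate 2 alone. Counts were 12 of 23 Nodal genes (9 lower) and 10 of 28 BMP genes (3 lower) against 44.8% of all genes, and 10 of each (5 lower in each) without the library, against 42.7%. Against day 12, 3 of 23 and 10 of 28 were called at a background of 42% (7 and 8 without the library, at 42.9%), with Id4 higher by 2.89 ± 0.43. From E13.5 to juvenile, 8 of 23 and 9 of 28 were called at a background of 34.8% (8 and 10 without the library, at 40.3%). Gdf3, a ligand related to Nodal, was at least 66.11-fold lower, Pcsk6, a convertase that processes such ligands, was at -3.21 ± 0.39, and the BMP ligand Bmp6 was higher (adjusted p = 0.000769). Bmp6 was well above background on 1 of the 2 E13.5 arrays, and against replicate 2 alone, where it was not, it was at least 10.34-fold higher.

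Genes most like each member were taken from 7265 named genes with a span of at least 2 between group means, by Pearson's r over the 18 arrays, as a description without a test, since the 2 arrays of a group share their cells. The closest to Nodal were Otx2, a homeobox gene of epiblast and brain (r = 0.979), Tgif1 (0.976), a repressor that binds Smad proteins, and Etv1 (0.968). Lefty1 was closest to Etv1 (0.981), Sfxn1 (0.953) and Snrpn (0.947), and Lefty2 to Sfxn1 (0.955), with Kirrel2 (0.943) also among its 3 closest. Tdgf1 was closest to Vdac1 (0.986), Platr10 (0.984) and Got1 (0.984), and Bmp4 to Kirrel2 (0.966), Sugt1 (0.957) and Slc39a14 (0.953). Closest to Bmp8b were Cyria (0.940), Fgd5 (0.917) and Cxcl16 (0.915). For Id1 they were En2 (0.851), Tspan31 (0.848) and Repin1 (0.842), for Id2 S100g (0.858), En2 (0.829) and Shisa7 (0.821), and for Id3 Bpnt1 (0.921), Kdm5c (0.898) and Mageh1 (0.893). The r of each gene with its closest gene lay between 0.817 and 0.989 without the E13.5 library.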

How the data were processed

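Scanner files of 18 Agilent arrays were read. Per the file headers, the authors extracted them with Feature Extraction 9.1.3.1, and the deposited intensity used here is background-subtracted and not scaled between arrays. A table of values processed by the authors was not used here. Spots of a probe were averaged, 172 of 41174 probes flagged as outliers on an array were left out, and the log2 intensity minus the 75th percentile of the array was the level. Names were updated through RefSeq accessions, symbols or synonyms. Of 41002 probes, 28114 entered the test, being well above background on each array of 1 group or more. The probe with the highest mean level stood for its gene. The 9 groups were fitted with limma 3.58.1 in R 4.3.3 (9 residual degrees of freedom), with the data.table package (version 1.17.8). The script was tested on simulated data. A dim gene has only a bound, written "at least", from the lowest signal well above background. Figures used Python 3.11.15, matplotlib 3.10.9, pandas 2.3.3 and numpy 2.4.6.

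The members, the pathway lists and the cell type markers were chosen with earlier results of these data known. The text names all members, up to 3 called genes per list, direction and comparison by smallest p, and the 3 genes most like each member. The arrays lay on 6 slides. Alternatives were normexp background correction (offset 50), quantile normalization, no filter, the mean over probes, slide or replicate number as a block, only the arrays compared, and leaving out libraries. The number of arrays limits the precision. The values of 1 pathway gene and 1 gene of the likeness lists are not reported here.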

Additional observations from a re-analysis of the deposited data

Results flagged for a closer look

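Id4, another Id gene, taken from the BMP list, moved in opposite directions in the differentiating cultures. It was higher in Stella day 7 than in Stella GFP-positive ES cells, by 1.48, and lower in Dazl day 12 than in Dazl GFP-positive ES cells, at -0.75, with every array of each culture on its own side of its ES cells. The difference between these changes was not tested, and line, day and slide differ between the cultures, so they cannot be told apart.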

How the results depend on the processing

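The difference within the E13.5 pair enters the spread of every comparison. Without replicate 1 of that pair, counts of called members were 4 in the Dazl sort (7.29% of all genes), 6 at day 7 (30.2%), 6 at day 12 (36.7%) and 3 for day 16 against day 12 (1.98%). Fitting only the arrays compared gave 4, 6, 6 and 6 for these, where 14%, 14.8%, 49% and 19.7% of all genes were called. It gave 1 for E13.5 against ES cells (18.4%), 1 for E13.5 against day 12 (12.7%) and 0 for juvenile against E13.5 (1.92%). Normexp gave 0 at day 7 (4.41% of all genes), slide as a block 1 at day 12 (15.3%), and the replicate block 2 at day 7 (21.3%). Leaving out 1 compared library gave 0 to 1 at day 7, 1 to 1 at day 12, 2 to 9 for E13.5 against ES cells, 3 to 8 against day 12 and 3 to 8 for juvenile cells.

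Normexp reversed Bmp8b in the Stella sort (0.40), the Dazl sort (0.16) and day 16 against day 12 (0.73), Id2 (-0.09) and Id3 (-0.18) in the Dazl sort, Nodal at day 7 (0.02) and Id2 at day 12 (0.26). Quantile normalization and the mean over probes each put Id2 at day 12 at 0.04, and the latter Skil, E13.5 against day 12, at 0.36. The cause was not tested. Without single libraries, values in the Stella sort ran from -0.61 to 0.37 (Bmp8b), -0.42 to 0.29 (Lefty2) and -0.39 to 0.07 (Id1). In the difference between sorts they ran from -0.09 to 0.90 (Bmp8b) and -0.16 to 0.83 (Id3). Id2 at day 12 ran from -0.10 to 0.10, and Bmp4, day 16 against day 12, from -0.04 to 0.31. For E13.5 against ES cells the ranges were -4.50 to 0.26 (Nodal), -7.19 to 0.85 (Lefty1), -7.54 to 0.18 (Lefty2), -1.09 to 2.37 (Id1), -1.04 to 1.59 (Id2) and -0.33 to 1.70 (Id3). Against day 12 they were -2.97 to 1.79 (Nodal), -2.72 to 5.32 (Lefty1), -2.39 to 5.33 (Lefty2), -0.07 to 3.38 (Bmp4), -1.25 to 2.21 (Id1) and -1.04 to 1.59 (Id2). Lefty2, juvenile against E13.5, ran from -6.83 to 0.89.

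Of 81 member values, 69 kept direction and call under normexp, 80 under quantile normalization, 81 with no filter, 80 with the mean over probes, 80 with the replicate block and 52 with only the arrays compared. Normexp moved the median of all genes by up to 0.54 and quantile normalization by up to 0.13. Genes called higher and lower under normexp were 24 and 51 in the Dazl sort (279 and 263 in the main setting), 406 and 427 at day 7 (1438 and 2453), 5390 and 1645 for day 16 against day 12 (115 and 74) and 3790 and 8412 for E13.5 against ES cells (4424 and 4041). Under quantile normalization they were 1737 and 1848 at day 7, and 9 and 9 (1 and 5) for the difference between sorts.

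The labels do not say what a replicate number marks. Across 18876 genes, deviations of same-numbered samples correlated at 0.41 to 0.56 in the sorts and between day 12 and day 16, where each number had a slide of its own, and at -0.03 to 0.33 in the other comparisons. Dim probes limit Bmp8b at E13.5 to a bound.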
